A study of Mus musculus with 12 samples.

Results

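The 10 genes described here are neuronal immediate early genes: *Fos*, *Fosb*, *Fosl2*, *Junb*, *Arc*, *Npas4*, *Egr1*, *Egr3*, *Nr4a1* and *Ier2*. They were chosen by name, as known activity-induced genes, from the 55413 annotated mouse genes, with earlier results of these data known. For each gene, the acetylation of histone H4 at lysine 12 (H4K12ac) was described within 2 kb of the annotated start, in the gene body and in the flanks to 50 kb. All 10 genes were found in the annotation (GENCODE release M21 on GRCm38, the build mm10 of the data).

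The study deleted *Tip60* (also *Kat5*), a lysine acetyltransferase, in excitatory neurons of the adult mouse forebrain. H4K12ac ChIP-Seq, which sequences the DNA bound to the modified histone, was carried out on neuronal nuclei sorted by FACS from the whole hippocampus. *Tip60* cKO mice carried *Tip60* with loxP sites on both alleles together with the tamoxifen-inducible *CaMKCreERT2* driver, and control mice carried the same floxed alleles without the driver. Both genotypes received tamoxifen, and the study dates its H4K12ac measurements to within 10 days of the deletion, while its ChIP-Seq methods and the labels give no day for these libraries. There were 5 libraries of each genotype, from adult male mice of 3 months on C57BL/6J by the labels, whereas the methods of the study give a C57BL/6N background and either sex. No label states that each library came from another mouse, so that p-values measure the spread between these libraries. As the driver acts in excitatory neurons, nuclei of other sorted neurons kept *Tip60* in the cKO, and a smaller number of acetylated nuclei cannot be told apart from less acetylation per nucleus. H4K12ac peaks do not read the deletion itself, so the genotypes rest on the labels.

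Immediate early genes are transcribed within minutes of neuronal activity, without new protein synthesis, from promoters and enhancers that are held ready in resting neurons. Calcium entering through synaptic receptors and channels activates kinases that phosphorylate CREB, bound to cAMP response elements (CREs), and the SRF complex, bound to CArG boxes. Many of the products are transcription factors, which in turn act on late response genes, and in the hippocampus this programme is known for its part in lasting synaptic change and memory. Histone acetylation at these loci marks active or readily activated chromatin.

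Promoter sequences are shown first, since most measurements below concern the DNA around the gene starts. RefSeq promoter windows (GRCm38.p6) were found for 6 of the 10 genes, *Fos*, *Fosb*, *Fosl2*, *Junb*, *Npas4* and *Nr4a1*, and not for *Arc*, *Egr1*, *Egr3* and *Ier2*. The 250 bases before the RefSeq start were searched on both strands for the full CRE (TGACGTCA), the CRE core (TGACG, which also lies inside the full CRE), the TATA box (TATAAA), the AP-1 site (TGANTCA) and the CArG box. CRE cores were present in 5 of the 6 windows, compared with 17.8% of all 32851 windows of the table. *Nr4a1* had 4, *Fos* and *Npas4* had 2 each, *Fosb* and *Junb* had 1 each, and *Fosl2* had none. The *Nr4a1* window precedes an inner start at position 101266846. It lies outside 2 kb of the annotated start at 101254269, to which the start measurements of *Nr4a1* below refer. A TATA box was found in *Fos* alone of the 6, 33 to 28 bases before the start, compared with 12.4% of all windows. No full CRE, AP-1 site or CArG box in these letters was found in the 6 windows, and the shares over all windows were 1.55%, 6.75% and 1.47%. A match is a description of the letters, and no match says only that these letters are not in this window. The *Fosb* window is shown without the bases that lie in an annotated exon, and those of *Fosl2* and *Npas4*, which overlap annotated exons, are not shown. Each sequence reads 5′ to 3′ in the direction of the gene, and capitals mark the CRE cores, or their reverse complement, and the TATA box.
Fos promoter, chr12:85473640-85473889, plus strand: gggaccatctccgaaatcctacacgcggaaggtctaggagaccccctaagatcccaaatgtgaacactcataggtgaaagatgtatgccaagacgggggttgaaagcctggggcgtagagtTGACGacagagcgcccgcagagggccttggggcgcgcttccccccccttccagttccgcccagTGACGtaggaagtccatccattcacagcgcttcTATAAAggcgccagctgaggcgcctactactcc
Fosb promoter, chr7:19310052-19310295, minus strand: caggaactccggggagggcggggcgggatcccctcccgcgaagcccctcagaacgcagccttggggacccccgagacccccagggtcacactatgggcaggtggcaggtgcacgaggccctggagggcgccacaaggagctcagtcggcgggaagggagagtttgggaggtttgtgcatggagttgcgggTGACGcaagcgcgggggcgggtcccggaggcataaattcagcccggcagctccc
Junb promoter, chr8:84978749-84978998, minus strand: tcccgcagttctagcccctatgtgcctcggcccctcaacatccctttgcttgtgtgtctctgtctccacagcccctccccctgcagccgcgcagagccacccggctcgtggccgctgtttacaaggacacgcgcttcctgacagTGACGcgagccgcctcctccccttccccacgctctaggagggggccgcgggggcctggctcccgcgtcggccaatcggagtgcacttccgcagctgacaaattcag
Nr4a1 promoter, chr15:101266596-101266845, plus strand: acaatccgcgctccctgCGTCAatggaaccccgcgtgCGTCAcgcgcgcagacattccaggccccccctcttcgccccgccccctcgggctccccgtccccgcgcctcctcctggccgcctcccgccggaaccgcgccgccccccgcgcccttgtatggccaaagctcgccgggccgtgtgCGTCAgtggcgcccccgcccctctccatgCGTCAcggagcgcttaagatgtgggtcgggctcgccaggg

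The peaks on which the later comparisons turn are shown next, as 200 bases around the summit. For *Fosb* and *Egr3*, the summit is that of the strongest peak within 2 kb of the start over the 10 libraries, centred at −581 and −1788 bases from the annotated start. For *Fosb*, *Arc* and *Nr4a1*, the strongest distal region upstream of the gene is shown in addition. None of the 5 motifs was found in any of these 5 windows, so that no base is in capitals. Over the summits within 2 kb of the start of 23984 genes, 13.1% of the windows held a CRE core and 3.1% an AP-1 site, and over 117183 distal regions 8.2% and 5.74%.
Fosb peak near the start, chr7:19310532-19310731, minus strand: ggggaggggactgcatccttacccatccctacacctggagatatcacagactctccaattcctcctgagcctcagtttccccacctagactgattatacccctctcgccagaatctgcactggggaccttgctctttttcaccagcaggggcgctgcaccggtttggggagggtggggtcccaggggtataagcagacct
Egr3 peak near the start, chr14:70075315-70075514, plus strand: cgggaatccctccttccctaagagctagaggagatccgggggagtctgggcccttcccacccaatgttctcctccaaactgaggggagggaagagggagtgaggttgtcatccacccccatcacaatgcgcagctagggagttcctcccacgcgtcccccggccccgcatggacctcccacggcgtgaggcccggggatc
Fosb distal region, chr7:19319845-19320044, plus strand: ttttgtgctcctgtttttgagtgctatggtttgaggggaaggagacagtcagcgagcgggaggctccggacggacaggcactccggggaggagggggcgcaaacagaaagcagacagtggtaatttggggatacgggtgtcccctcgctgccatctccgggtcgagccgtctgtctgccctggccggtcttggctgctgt
Arc distal region, chr15:74679392-74679591, plus strand: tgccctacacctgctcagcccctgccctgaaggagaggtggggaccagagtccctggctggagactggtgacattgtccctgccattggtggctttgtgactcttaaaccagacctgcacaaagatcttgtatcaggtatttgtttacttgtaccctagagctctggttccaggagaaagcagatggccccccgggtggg
Nr4a1 distal region, chr15:101235513-101235712, plus strand: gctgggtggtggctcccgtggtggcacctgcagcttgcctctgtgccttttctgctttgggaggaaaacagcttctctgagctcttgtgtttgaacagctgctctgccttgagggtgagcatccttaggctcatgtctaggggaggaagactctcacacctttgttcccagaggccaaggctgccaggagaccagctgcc

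The data are lists of H4K12ac peaks, 1 per library, called by the authors with MACS against the pooled input of the same genotype. Between 22864189 and 37923809 tags per library gave between 64245 and 136409 peaks, and *Tip60* cKO replicate 5 was the shallowest library with the fewest peaks. Libraries are called below by genotype and replicate number, such as control 4 or cKO 5. Because the number of peaks called depends on depth, the coverage results at the starts and flanks are given also with the strongest 64245 peaks of every library. Replicates 1 to 3 of both genotypes carried lane number 7 and replicates 4 and 5 lane number 8 in the names of their files. Of 12 neuronal marker genes, 9 had a peak within 2 kb of the start in all 10 libraries, including *Rbfox3*, *Snap25* and *Slc17a7*, whereas the interneuron genes *Gad1*, *Gad2* and *Slc32a1* had one in 0, 1 and 2 libraries. Of 5 astrocyte, 9 oligodendrocyte, 6 microglia and 4 endothelial markers, 2, 6, 5 and 2 had no peak there in any library. *Mbp* alone had one in all 10, *Gfap* in 9, *Cspg4* in 7 and *P2ry12* in 5, and the others in at most 4.

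All 10 genes carried H4K12ac near their starts in the control, at widely different extents. Coverage is the percentage of the bases within 2 kb of the start that lie in peaks. It was highest at *Junb*, which encodes an AP-1 subunit (86.2% ± 6.92, SD, n = 5, as for all means below), *Egr3*, a zinc finger transcription factor (78.6% ± 10.9), and *Fosl2*, the AP-1 subunit FRA2 (78.6% ± 8.49). *Arc*, whose protein acts in the trafficking of AMPA receptors at synapses, followed with 60.6% ± 10.01, and *Egr1*, the zinc finger factor also called Zif268, with 45.9% ± 9.20. *Ier2*, a short nuclear protein gene, had 35.0% ± 10.8, *Nr4a1*, an orphan nuclear receptor, 31.5% ± 5.75, and *Fosb*, an AP-1 subunit, 29.1% ± 10.1. Coverage was lowest at *Npas4*, a neuron-specific bHLH-PAS factor (21.4% ± 5.06), and at *Fos*, the AP-1 subunit most used as an activity marker (17.3% ± 4.85). In this order, *Fosl2* and *Arc*, *Arc* and *Egr1*, and *Egr1* and *Ier2* differed by more than the larger of their SDs, whereas all other neighbours lay within it. The median of the 10 genes in the control was 40.4%, compared with 20.2% over the 21672 genes with a peak near the start in at least 2 libraries.

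The acetylated bases were arranged differently around the starts, as the profile in bins of 250 bases shows. At *Junb*, the 5 bins that begin 250 to 1250 bases downstream of the start were fully covered in every control library, while the bin just upstream of the start was covered to 14.6%. *Egr3* was fully covered in the bins that begin at −2000, −1750 and −1500 and in the 5 bins that begin at 0 to 1000, with no coverage in the bin at −500. *Nr4a1* had 1 block around its annotated start and *Fosb* had 2, with 100% in the bin at −750 and 97.4% in that at 1500 and no coverage in the 3 bins that begin at 0, 250 and 500. At *Fos*, the strongest control peak lay between −1736 and −1451 bases in all 5 libraries, and the bins at 0 and 250 were covered to 8.88% and 17.0%. A bin outside peaks did not pass the threshold of the peak caller and may still be acetylated.

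**Figure D1:**
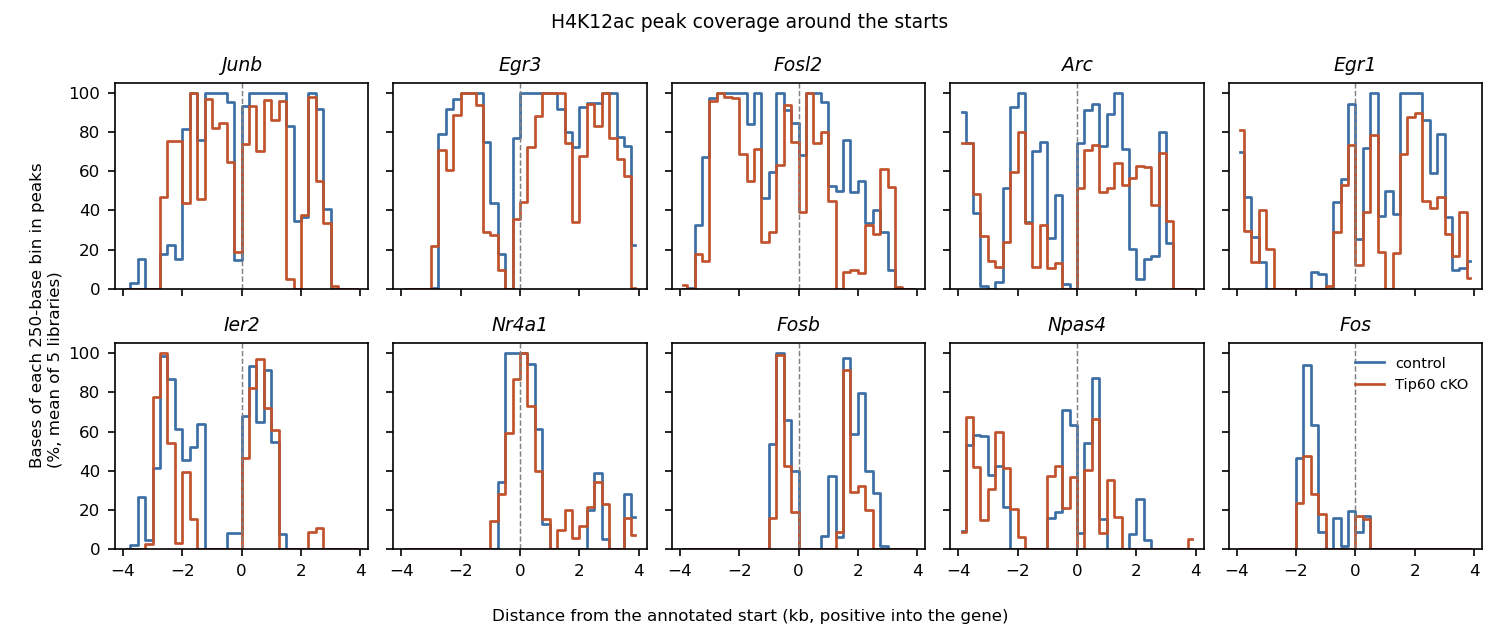
Percentage of the bases of each 250-base bin that lie in H4K12ac peaks (vertical axis, mean of 5 libraries) against the distance from the annotated gene start (horizontal axis, kb, positive into the gene), with 1 panel per gene and 1 line per genotype. The control signal of *Fos* is highest in the bin at −1750 (94.2%), *Nr4a1* has 1 block around the start, and *Junb*, *Egr3* and *Fosl2* are covered on both sides of it.

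Does loss of *Tip60* change the extent of H4K12ac at the starts of these genes? Mean coverage was lower in *Tip60* cKO at all 10 genes, with differences between −26.3 and −1.95 percentage points, but no gene passed the test over all genes and the values of the genotypes overlapped at every gene. Under limma with Benjamini-Hochberg adjustment over 21672 genes at 0.05, 0 of the 10 were called, compared with 1.44% of all genes called lower and 0.0508% called higher. At an unadjusted limma p under 0.05, 5 of the 10 (*Fosl2*, *Junb*, *Arc*, *Egr1* and *Fosb*) and 4594 of the 21672 genes had lower values. Genotypes did not overlap in 5.23% of all genes in the lower direction and in 0.157% in the higher direction. Lower means were the rule in these libraries, with 81.1% of all genes tested. The median difference was −12.7 percentage points over the 10 genes and −4.01 over all genes. Median coverage was 40.4% in the control and 29.2% in *Tip60* cKO for the 10 genes, and 20.2% and 15.3% for all genes. These differences thus start from unlike levels. With the same number of peaks from every library, 9 of the 10 were lower with a median of −11.6, against 77.2% and −3.70 over all genes, and *Ier2* was higher by 5.48. Without *Tip60* cKO replicate 5, 8 of the 10 were lower with a median of −9.47, against 72.9% and −2.82 over all genes.

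*Fosl2* (chr5:32135801-32157842, plus strand) had the largest difference of the 10 within 2 kb of the annotated start. Its control libraries had 83.3%, 88.0%, 75.3%, 65.8% and 80.6% and its *Tip60* cKO libraries 59.8%, 56.2%, 65.9%, 56.1% and 23.4%, in the order of the replicate numbers. The genotypes overlapped only in control 4, which lay just below cKO 3. The means were 78.6% ± 8.49 and 52.3% ± 16.6, a difference of −26.3 (SE 7.73, limma adjusted p = 0.0833, two-sided exact permutation p = 0.0159). *Fosl2* became called with the sequencing lane as a covariate (limma adjusted p = 0.0494), a setting in which calls over all genes went from 313 lower and 11 higher to 550 and 18. The difference was −21.6 in lane 7 and −33.4 in lane 8. *Fosl2* was not the gene with the largest difference in other windows. With windows of 1 kb it had −18.1 and *Egr3* −20.0, and over all transcript starts it had −12.5 and *Arc* −19.8.

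*Junb* (chr8:84974484-84978718, minus strand) had the next largest difference. Coverage was 92.7%, 90.8%, 85.3%, 75.0% and 87.1% in the control and 77.6%, 60.3%, 82.7%, 68.6% and 41.1% in *Tip60* cKO. Of the cKO libraries, 2 lay within the range of the control. The means were 86.2% ± 6.92 and 66.1% ± 16.4, with a difference of −20.1 (SE 7.85, limma adjusted p = 0.160, exact permutation p = 0.0317).

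*Arc* (chr15:74669083-74672570, minus strand) had 62.3%, 74.6%, 47.7%, 55.3% and 63.0% in the control and 51.4%, 42.7%, 58.6%, 35.8% and 15.3% in *Tip60* cKO. Again 2 cKO libraries lay within the control range, and the lowest value was that of cKO 5. The difference was −19.8 (SE 7.52, limma adjusted p = 0.149, exact permutation p = 0.0476), and it was −10.6 in lane 7 and −33.6 in lane 8.

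At *Egr1* (chr18:34859823-34864984, plus strand), the control libraries had 55.5%, 50.7%, 33.5%, 39.0% and 50.6% and the cKO libraries 36.5%, 30.5%, 28.1%, 30.6% and 24.5%. Here cKO 1 alone exceeded the lowest control, and the cKO libraries were close together. The means of 45.9% ± 9.20 and 30.03% ± 4.38 differed by −15.8 (SE 4.74, limma adjusted p = 0.0873, exact permutation p = 0.0159), with −14.9 in lane 7 and −17.3 in lane 8. *Egr3* (chr14:70077203-70082614, plus strand) differed by −15.5, between 66.9% and 89.8% in the control and 42.9% and 77.7% in *Tip60* cKO (SE 7.78, limma adjusted p = 0.251).

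The remaining genes had smaller differences. *Fosb* (chr7:19302696-19310051, minus strand) ranged from 17.4% to 42.0% in the control and from 13.3% to 23.3% in *Tip60* cKO (difference −9.98, SE 4.45, limma adjusted p = 0.203). *Ier2* (chr8:84661331-84662852, minus strand) ranged from 18.3% to 46.1% and from 16.6% to 34.04% (difference −9.06, SE 5.31, limma adjusted p = 0.320). *Fos* (chr12:85473890-85477273, plus strand) had 17.1%, 13.1%, 18.0%, 25.1% and 13.4% in the control and 6.80%, 0%, 29.7%, 5.47% and 4.77% in *Tip60* cKO. Thus 4 cKO libraries lay below all controls at *Fos* and 1, cKO 3, lay above them all, with a difference of −7.98 (SE 4.75, limma adjusted p = 0.328), and of −13.1 (limma adjusted p = 0.0705) without cKO 3. No *Fos* peak was called in cKO 2. *Nr4a1* (chr15:101254269-101274795, plus strand) and *Npas4* (chr19:4984355-4990316, minus strand) differed by −3.14 (limma adjusted p = 0.786) and −1.95 (limma adjusted p = 0.866). Both were higher in *Tip60* cKO within lane 7 (3.63 and 4) and lower within lane 8 (−13.3 and −10.9), and both were higher without cKO 5 (0.79 and 2.92), and *Npas4* also without cKO 4. The other 8 genes were lower in both lanes. Coverage was lowest of all 10 libraries in cKO 5 at 8 of the 10 genes. With windows of 1 kb the differences were −10.8 at *Nr4a1*, −10.2 at *Npas4*, −3.95 at *Fos* and −4.58 at *Ier2*, and none was called. With equal numbers of peaks they were −5.38 at *Nr4a1*, −5.37 at *Npas4* and −3.77 at *Fos*.

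**Figure D2:**
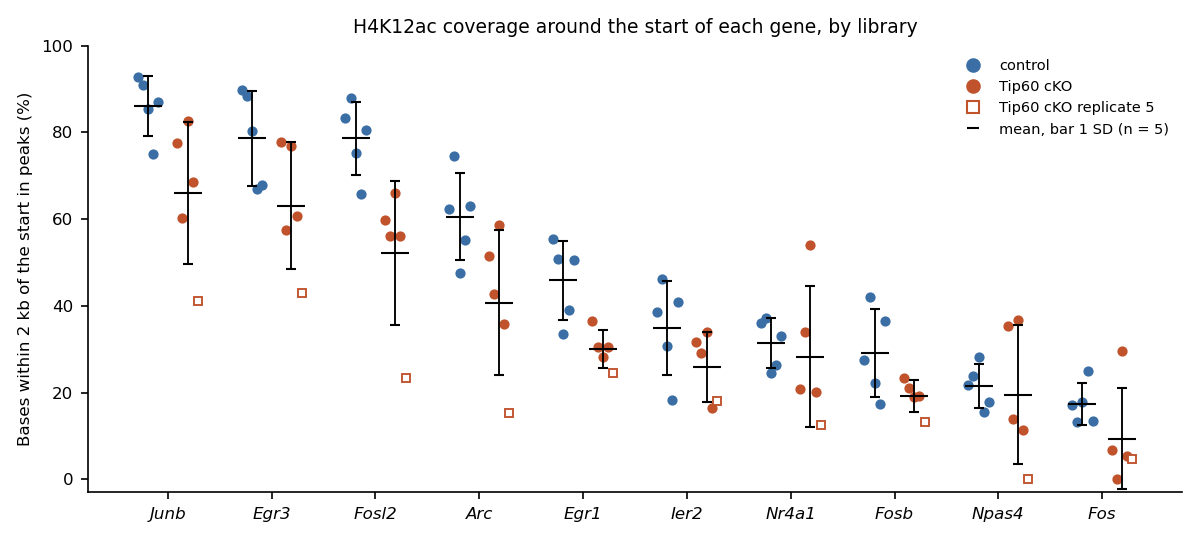
Percentage of the bases within 2 kb of the start in H4K12ac peaks (vertical axis) for each gene, ordered by the control mean. Each symbol is 1 library, bars are means ± SD of 5 libraries, and the open square is *Tip60* cKO replicate 5, the lowest library at 8 of the 10 genes. All 10 cKO means lie below the control means, from −26.3 percentage points at *Fosl2* to −1.95 at *Npas4*, and the genotypes overlap at each gene.

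*Nr4a1* has annotated starts up to 18592 bases apart, and its outermost start, used above, lies upstream of the RefSeq start at position 101266846. With the windows of all annotated transcript starts joined, coverage of *Nr4a1* was 22.5% ± 6.75 in the control and 20% ± 8.86 in *Tip60* cKO (SE 4.56, limma adjusted p = 0.771). On this scale all 10 genes were again lower, and none was called.

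The strongest peak near the start had a shorter median length in *Tip60* cKO at 9 of the 10 genes, beside the lower depth of cKO 5, and a longer one at *Ier2*. The median length of the strongest peak was 1733 bases in the control and 457 in *Tip60* cKO at *Junb*, where the mean number of peaks within 2 kb went from 2.6 to 4.2. It was 1802 and 1010 bases at *Egr3*, 1222 and 812 at *Fosl2* and 1063 and 330 at *Egr1*. These lengths were not tested and are given for the 10 genes only, whereas 81.1% of all genes tested had lower coverage near the start. They do not follow a single peak, since the median summit at *Junb* was −1621 in the control and 175 in *Tip60* cKO. The widest *Junb* peak that overlaps the window had 1521 to 1907 bases in the control libraries and 386 to 1565 in *Tip60* cKO. At *Egr1* the widest peak had 913 to 1605 and 605 to 932 bases. By place, *Junb* had 83.3% and 5.28% in the bin at 1500 bases, *Fosl2* 76.1% and 8.56% in the bin at 1500 and *Egr3* 100% and 44.4% in the bin at the start. Other bins of *Junb* and *Fosl2*, beyond 2 kb from the start, were higher in *Tip60* cKO: *Junb* went from 22.5% to 75.4% in the bin at −2500 and from 15.4% to 75.4% in the bin at −2250, and *Fosl2* from 29.1% to 61.3% in the bin at 2750 and from 9.68% to 51.8% in the bin at 3000. *Nr4a1* was fully covered in the bin at its start in both genotypes.

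Is the strength of the peaks changed, apart from their extent? *Fosb* was the single gene of the 10 whose strongest peak near the start fell past the threshold. Relative fold enrichment is the log2 of the fold enrichment of the strongest peak that overlaps the window, over the median of the library, and it was tested for genes with a peak in all 10 libraries, 8 of the 10 listed and 13004 in all. Of the 8, 1 was called lower and 0 were called higher, compared with 1.67% and 1.13% of all genes. The genotypes overlapped at all 8, whereas 2.91% of all genes did not overlap in the lower direction and 1.69% in the higher direction. The median difference of the 8 was −0.09 and that of all genes −0.06 on the log2 scale. Without cKO 5, however, the median was 0.02, with 4 lower, 5 higher and 0 called of the 9 listed genes that could then be tested. Over all 14101 genes tested in that setting the median was −0.04 and 57.4% were lower, with 120 called lower and 128 higher.

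The relative fold enrichment of *Fosb* was 0.75, 0.26, 0.43, 0.19 and 1.01 in the control libraries and −0.01, −0.08, −0.07, 0.35 and −0.36 in the *Tip60* cKO libraries, on the log2 scale. Only cKO 4 reached the range of the control. The means were 0.53 ± 0.35 and −0.04 ± 0.25, and *Fosb* fell by 0.57 (SE 0.157, limma adjusted p = 0.0345, exact permutation p = 0.0238), with −0.54 in lane 7 and −0.61 in lane 8. In fold enrichment over background, this was 7.86 ± 1.85 against 4.92 ± 0.992, and the rank among all genes was 93.3 ± 5.08 and 83.0 ± 6.21 percent. In all 5 control libraries the strongest *Fosb* peak lay upstream, between −743 and −491 bases from the start. In cKO 1 and cKO 5 it was instead the peak inside the gene, 1600 and 1677 bases after the start. The call did not hold without any one of 6 of the 10 libraries (cKO 2, cKO 3, cKO 5, control 1, control 3 and control 5), with differences from −0.662 to −0.445 over all 10 omissions and adjusted p from 0.0204 to 0.128. It also did not hold with the pileup, the height of the peak without division by the background (−0.34, limma adjusted p = 0.337). The local background under the strongest *Fosb* peak, relative to the background of the genome, was 1 in every control library and 1.16 ± 0.106 in *Tip60* cKO, which has its own input pool, and its part in the difference was not tested.

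*Egr3* had relative fold enrichments of 0.82, 0.83, 0.75, 0.51 and 0.82 in the control and of 0.58, 0.63, 0.46, 0.33 and 0.54 in *Tip60* cKO, on the log2 scale. The genotypes overlapped through control 4 alone, and the difference of −0.24 (SE 0.131) was not called (limma adjusted p = 0.340, exact permutation p = 0.0317). The strongest peak of *Egr3* lay between −2101 and −1306 bases in all cKO libraries and in 3 control libraries, and at 732 and 707 bases in controls 1 and 4. With windows of 1 kb, *Egr3* had 0.65 ± 0.17 and 0.14 ± 0.225, a called difference of −0.51 (SE 0.14, limma adjusted p = 0.0297). A peak that overlaps this window counts also where its summit lies outside it, and the part of such peaks was not tested. The *Egr3* bin at −1000 was covered to 43.6% in the control and 27.7% in *Tip60* cKO. *Fosb* was called in this window as well, with −0.67 (limma adjusted p = 0.016), and of the 11858 genes tested in it 207 were called lower and 147 higher. *Egr1* differed by −0.19 (limma adjusted p = 0.498), *Junb* by −0.12 (limma adjusted p = 0.703) and *Nr4a1* by −0.06 (limma adjusted p = 0.879). *Fosl2*, with the largest difference in coverage within 2 kb, had nearly the same relative fold enrichment in both genotypes. It had 0.76 ± 0.176 and 0.75 ± 0.271, a difference of −0.01 with SE 0.138. Its strongest peak was not the same one in every library. The summit lay between −2784 and −193 bases in the control (median −2738) and between −2586 and −182 in *Tip60* cKO (median −235). At *Arc* and *Ier2* the mean was higher in *Tip60* cKO by 0.10 and 0.06 (limma adjusted p = 0.785 and 0.878). *Fos* lacked a peak in cKO 2 and *Npas4* in cKO 5, so that neither was tested on this scale. By the rank among all 55413 genes, which takes a missing peak as 0, none of the 10 genes was called, compared with 0.12% of 21672 genes called lower and 0.277% called higher. On that scale 6 of the 10 were lower, compared with 55.6% of all genes, and 4 of the 10 without cKO 5, compared with 52.7%. At an unadjusted limma p under 0.05 *Fosb* alone was lower, compared with 7.24% of all genes. Within lanes 7 and 8 the sign of the log2 difference was not the same for *Fosl2* (0.12 and −0.21), *Nr4a1* (−0.13 and 0.06) and *Ier2* (0.32 and −0.32).

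**Figure D3:**
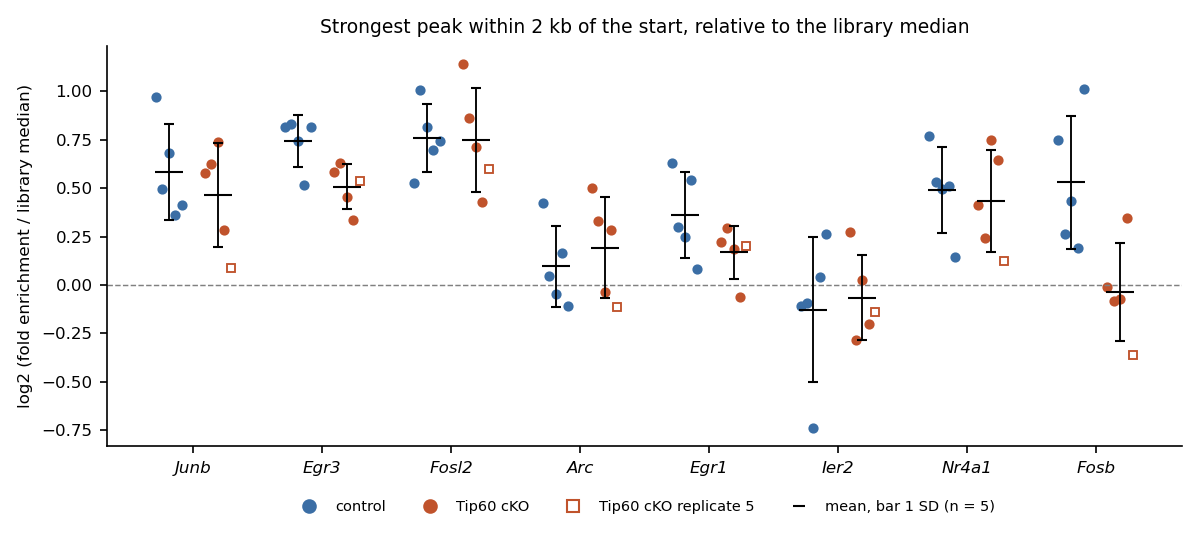
log2 of the fold enrichment of the strongest peak within 2 kb of the start over the library median (vertical axis) for the 8 genes with a peak in all 10 libraries, with 1 symbol per library and means ± SD of 5 libraries. *Fosb* drops from a mean of 0.53 to −0.04, while *Fosl2* has 0.76 and 0.75, and the open square marks *Tip60* cKO replicate 5.

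In the gene bodies past the first 2 kb, no gene was called and the directions differed. *Fos* had no peak there in any library, and *Ier2* has no bases past 2 kb. Of the 8 genes tested, 0 were called, compared with 0.0736% of 13579 genes called lower and 0% called higher, and at an unadjusted limma p under 0.05 only *Fosb* was lower, compared with 14.2% of all genes. *Fosb* had 31.7%, 46.4%, 11.5%, 15.5% and 16.1% in the control and 15.9%, 8.95%, 6.52%, 5.04% and 3.92% in *Tip60* cKO. Here cKO 1 alone lay within the control range, and the difference was −16.2 percentage points (SE 6.28, limma adjusted p = 0.279, exact permutation p = 0.0238). When single libraries were left out, it ranged from −19.4 to −10.6. *Arc* went the other way, with 41.5%, 22.3%, 17.0%, 20.4% and 16.9% in the control and 79.0%, 45.2%, 39.3%, 14.6% and 50.4% in *Tip60* cKO. The difference of 22.1 (SE 10.4, limma adjusted p = 0.346, exact permutation p = 0.103) stood above those of 99.8% of all genes tested, over a body of 1487 bases, and was 13.8 without cKO 1. *Egr3* had 49.4% ± 9.05 and 41.4% ± 12.4, *Egr1* 31.3% ± 13.02 and 24.7% ± 12.7, and *Junb* 30.1% ± 5.59 and 25.2% ± 9.25, none of them called. *Nr4a1* (10.9% and 12.0%), *Fosl2* (5.52% and 5.02%) and *Npas4* (1.91% and 5.44%) had less coverage of the body than these in both genotypes, and *Nr4a1* was higher in *Tip60* cKO within lane 7 (4.48) and lower within lane 8 (−4).

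Do the flanks, where the activity-dependent enhancers of such genes lie, change with the genotype? Distal flank coverage is the percentage of bases in peaks within 50 kb of the gene ends, outside the gene and outside 2 kb of the outermost annotated start of every gene. Bases inside other genes, also those near their inner transcript starts, remained in this measure. Means were lower in *Tip60* cKO for all 10 genes and for 80.2% of the 34161 genes tested. No listed gene was called, compared with 0.846% called lower and 0.00585% called higher, and the genotypes overlapped for each, compared with 4.45% and 0.0615% of all genes that did not overlap. The median difference was −1.19 percentage points for the 10 genes and −0.362 for all genes. Median flank coverage was 7.44% in the control and 6.09% in *Tip60* cKO for the 10 genes, and 1.64% and 1.17% for all genes. Differences in percentage points, here and in the settings below, thus start from unlike levels. With equal numbers of peaks 9 of the 10 were lower with a median of −0.636, against 69.6% and −0.186 for all genes. Without cKO 5, 8 of the 10 were lower with a median of −0.479, against 68.9% and −0.197 for all genes. All 10 genes had their lowest value of the 10 libraries in cKO 5. At an unadjusted limma p under 0.05, 0 of the 10 were lower or higher, compared with 17.5% and 0.89% of all genes. Plain eBayes called 0 of the 10, and 52 genes lower and 0 higher of the 34161. The 289 lower calls over all genes depended on single libraries, with 0 without cKO 2, cKO 3, cKO 4 or cKO 5, 9 without control 5, 134 without control 2, 502 without cKO 1 and 2524 without control 4.

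The flanks of *Nr4a1* were the most acetylated. They had 26.7%, 28.9%, 25.5%, 17.9% and 23.8% in the control and 27.8%, 20.1%, 28.2%, 17.2% and 10.1% in *Tip60* cKO, which overlap over nearly the whole range. The difference was −3.87 (SE 4.27, limma adjusted p = 0.642), and −1.23 without cKO 5, where those of *Ier2* and *Arc* were −0.448 and −0.0352. *Ier2* followed with 16.1% ± 2.77 and 14.4% ± 4.01. Among its longest merged peaks, those of 3855 and 2652 bases overlapped *Nfix* and that of 3766 bases overlapped *Cacna1a*. The first was centred 8 bases from an inner start of *Nfix*, and another of 1096 bases 131 bases from a start of *Cacna1a*. *Egr3* had 9.13%, 10.5%, 7.85%, 5.94% and 7.99% in the control and 6.90%, 4.83%, 6.80%, 6.71% and 3.65% in *Tip60* cKO, with control 4 alone within the cKO range. Its difference of −2.50 (SE 1.36) was not called (limma adjusted p = 0.321, exact permutation p = 0.0317). *Fosb* had 8.05% ± 1.23 and 6.12% ± 2.56, *Arc* 7.91% ± 1.66 and 6.87% ± 2.64, *Egr1* 6.97% ± 1.47 and 6.15% ± 2.30, and *Junb* 6.56% ± 1.57 and 6.06% ± 2.60. The genotypes overlapped at each of these, and within lane 7 the flanks of *Arc* and *Junb* were higher in *Tip60* cKO (0.224 and 0.582). *Npas4* had 4.69% ± 1.93 and 3.46% ± 1.79, and *Fosl2* 3.73% ± 0.613 and 2.58% ± 1.301. The flanks of *Fos* had the least, 1.96% ± 0.542 and 1.38% ± 0.876, and in the control the gap to *Fosl2* exceeded either SD.

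**Figure D4:**
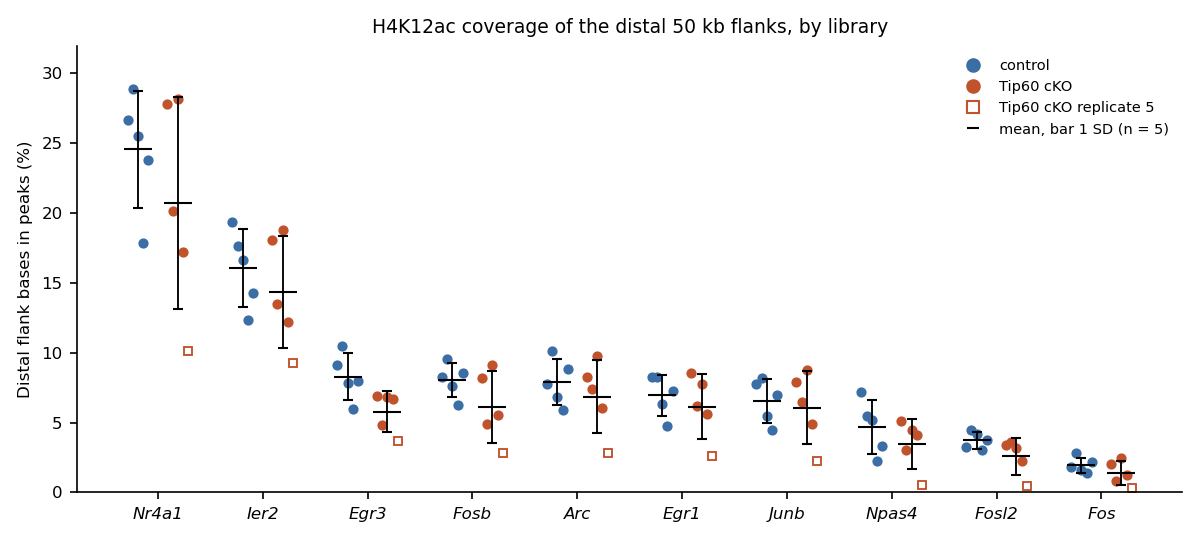
Percentage of the distal bases within 50 kb of each gene that lie in H4K12ac peaks (vertical axis), with 1 symbol per library and means ± SD of 5 libraries, ordered by the control mean. *Nr4a1* (24.6% in the control) and *Ier2* (16.1%) stand above the other 8 genes, and *Tip60* cKO replicate 5 (open square) is lowest for all 10. The flanks of *Ier2* include peaks inside *Nfix* and *Cacna1a*.

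Single distal regions were compared next, as merged peaks found in at least 2 libraries and outside 2 kb of the outermost annotated start of every gene. Of 117183 such regions, 148 lay in or within 50 kb of the 10 genes, 23 of them in gene bodies, 68 upstream and 57 downstream. Of the 148, 24 had their centre within 2 kb of an inner annotated transcript start, among them the strongest region of *Ier2*, 8 bases from a start of *Nfix*. *Nr4a1* had 34, *Ier2* 20, *Arc* 16, *Egr3* 15, *Fosl2* and *Egr1* 14 each, *Fosb* 13, *Npas4* 10, *Junb* 9 and *Fos* 3. A peak was present in all 10 libraries at 38 of the 148, 13 of which belonged to *Nr4a1*, and at 10.9% of all distal regions. The rank score of a region is the percent rank of its strongest peak in a library, and 0 without a peak. By this score 78 regions had a lower and 70 a higher mean in *Tip60* cKO, with a median difference of −0.899, compared with 55.9% lower and −2.39 over all distal regions. The direction turned with equal numbers of peaks (46 lower and 52 higher, median 0.778) and without cKO 5 (71 lower and 75 higher, median 0.405), and in both cases 50.4% of all regions were lower. It turned also without control 3 (70 lower and 71 higher, median 0.119), where 57.5% of all regions were lower. With limma none of the 148 was called, nor was any of the 117183 (0% lower and 0% higher). At an unadjusted p under 0.05 there were 10 lower and 7 higher of the 148, against 6.67% and 3.39% of all, and plain eBayes called 0 of the 148, with 562 lower and 94 higher of the 117183. Genotypes did not overlap at any of the 148, compared with 1.14% of all in the lower and 0.713% in the higher direction.

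The strongest distal region of each gene, by the mean rank score over all libraries, had a peak in every library, and at none of the 10 was the difference between the genotypes called. For *Fosb* it was centred at −9540 bases from the start, outside other genes, with scores of 97.0 ± 1.73 in the control and 94.2 ± 3.78 in *Tip60* cKO. For *Junb* it was at −6767 bases (95.0 ± 9.47 and 96.4 ± 2.40) and for *Arc* at −6673 bases (92.3 ± 2.68 and 86.1 ± 9.49). *Npas4* had its strongest region at −9368 bases (65.6 ± 15.7 and 74.1 ± 10), the lowest score of the 10 genes. The genotypes overlapped at each of these regions. At *Fos* it lay 12363 bases (93.6 ± 3.49 and 91.8 ± 4.60) and at *Egr1* 27864 bases (95.0 ± 4.17 and 95.3 ± 1.87) downstream of the start. At *Fosl2* it lay 63513 bases downstream of the start (73.8 ± 13.1 and 83.1 ± 6.42), past the end of this longer gene. The region of *Egr3*, 53661 bases downstream, overlapped *Bin3* (91.1 ± 5.55 and 90.3 ± 4.68), and that of *Ier2*, at −45358 bases, overlapped *Nfix* (97.3 ± 1.3 and 99.5 ± 0.63, exact permutation p = 0.0159, limma adjusted p = 0.814). *Nr4a1* had its strongest region at −17996 bases, with scores of 97.5 ± 1.38 and 92.6 ± 2.83 (exact permutation p = 0.0159, limma p = 0.183 before and 0.468 after adjustment), lower in *Tip60* cKO where the region of *Ier2* was higher. The sequence at the summit of this *Nr4a1* region is the last of those given above. Apart from those of *Nr4a1* and *Ier2*, no strongest region had an exact permutation p below 0.183.

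Upstream of *Arc*, the regions nearest to the start were higher rather than lower in mean score. The regions at −3614 and −4994 bases, with peaks in all 10 libraries, had 75.6 ± 19.4 and 65.2 ± 21.8 in the control and 89.4 ± 6.43 and 84.7 ± 8.58 in *Tip60* cKO (limma adjusted p = 0.433 and 0.406). Neither was called. On this scale the strongest peak of *Arc* within 2 kb of the start was also higher in mean (85.0 ± 4.67 and 88.9 ± 5.25), whereas its coverage there was lower.

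Within the body of *Nr4a1*, a region centred 11962 bases after the annotated start ended before the RefSeq start and one centred 13523 bases after it contained that start, and both had peaks in all 10 libraries. They had scores of 91.1 ± 4.02 and 82.9 ± 7.11 (limma adjusted p = 0.462) and of 68.1 ± 14.0 and 66.1 ± 17.3 (limma adjusted p = 0.996). By presence alone, 5 of the 148 regions had a peak in at least 4 more control than cKO libraries and 1 in at least 4 more cKO than control libraries, compared with 2821 and 615 of all 117183 regions. The regions with more control peaks lay at *Fosl2* (2), *Junb*, *Npas4* and *Egr1*, and the region with more cKO peaks 50949 bases downstream of the start of *Nr4a1*. The *Fosl2* regions lay in the gene body 14651 bases after the start (4 control and 0 cKO libraries) and, past the gene, 41883 bases after it (5 and 1 libraries). CRE cores were found around 14 of the 148 summits (9.46%), compared with 8.2% of all distal regions, and AP-1 sites around 10 (6.76%), compared with 5.74%.

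**Figure D5:**
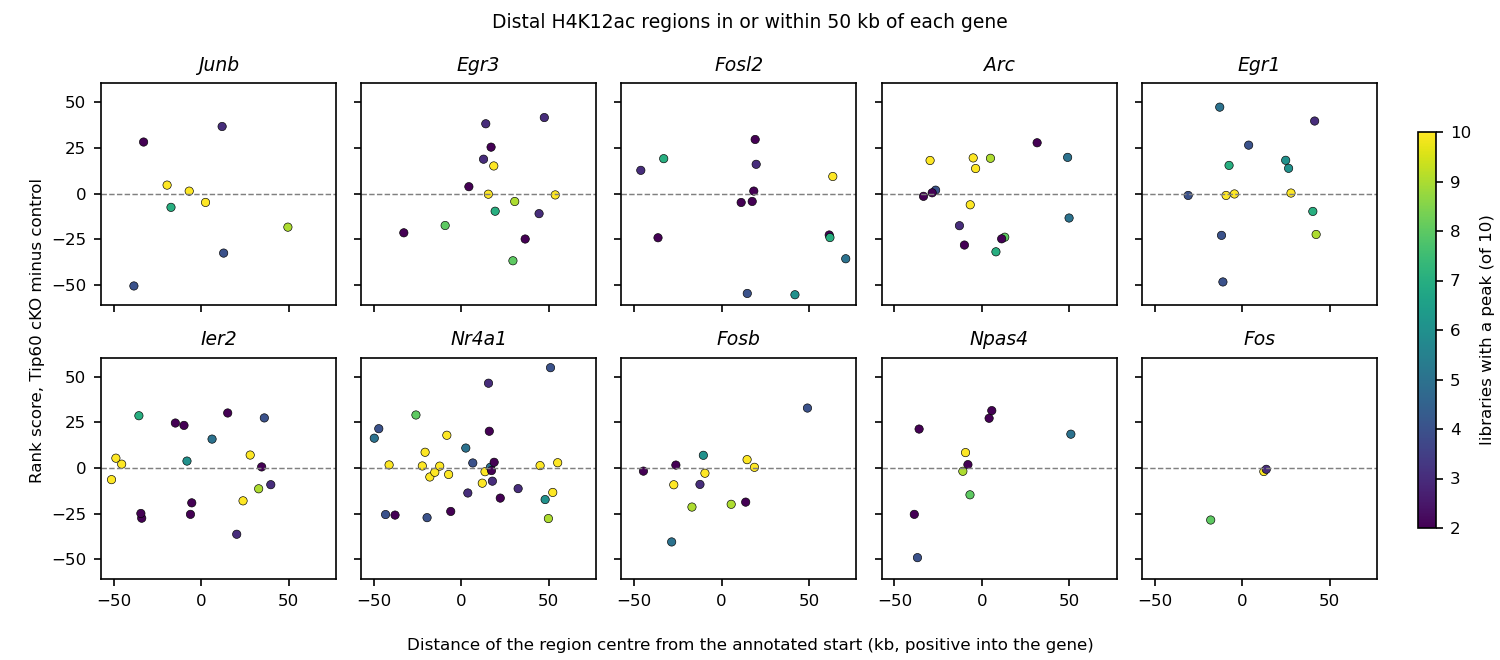
Difference in rank score between *Tip60* cKO and control (vertical axis) of the 148 distal H4K12ac regions against the distance of their centre from the annotated start (horizontal axis, kb, positive into the gene), with 1 panel per gene. Colour gives the number of libraries with a peak, of 10, and the 38 regions found in all 10 libraries have differences between −17.9 and 19.5, against −36.2 to 46.5 for the 55 found in 2 or 3.

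Other genes of the activity response were compared by lists of names. Of 33 other immediate early genes in the annotation, 30 were tested for coverage near the start and 25 were lower, with a median difference of −6.44, but 0 were called, with 11 lower and 0 higher at an unadjusted limma p under 0.05. Over all genes, 81.1% were lower, 21.2% were lower at that p, 1.44% were called lower and 5.23% did not overlap in the lower direction, which stands beside the counts of all 3 lists. The genotypes did not overlap at 3 of them, all lower in *Tip60* cKO. *Jun*, the AP-1 partner of the FOS proteins, had 80.2% ± 4.83 and 49.7% ± 19.5 (limma adjusted p = 0.0672), *Cited2*, a CBP/p300-binding regulator, 63.0% ± 5.87 and 48.6% ± 7.36, and *Gadd45g*, a stress-response gene, 58.0% ± 3.89 and 45.2% ± 1.91. Of 20 late response genes tested, 18 were lower (median −6.69), 8 of them at an unadjusted p under 0.05, and 1 was called, *Grasp*, a synaptic scaffold gene that lies upstream of *Nr4a1* within its flank (58.4% ± 10.4 and 29.4% ± 11.9, limma adjusted p = 0.0387). *Fbxo33* (28.8% ± 4.11 and 16.3% ± 4.60) and *Syt4* (27.6% ± 9.11 and 16.1% ± 2.88) did not overlap either. Of 23 upstream factors tested, 19 were lower (median −4.09), 6 of them at an unadjusted p under 0.05, and 1 was called, *Mapk3*, which encodes the kinase ERK1 (43.5% ± 6.30 and 23.4% ± 5.93, limma adjusted p = 0.0339). At *Creb1*, the gene of CREB itself, the genotypes did not overlap (41.1% ± 5.29 and 30.5% ± 6.06, limma adjusted p = 0.165). The difference between these lists and the 10 genes was not tested.

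Of the marker genes of cell types, 1 of 10 neuronal markers tested and 1 of 3 astrocyte markers tested were called, and none of the 3 oligodendrocyte markers and 1 microglia marker tested, by coverage near the start. By flank coverage, *Prox1*, 1 of 11 neuronal markers tested (limma adjusted p = 0.0308), and *P2ry12*, 1 of 6 microglia markers tested (limma adjusted p = 0.0455), were called lower. Mean coverage near the start over the 12 neuronal markers was between 27.5% and 39.1% in the control libraries and between 17.9% and 33% in *Tip60* cKO, and *Syt1* was called lower (51.4% ± 7.80 and 29.2% ± 7.07, limma adjusted p = 0.0405). Over the 5 astrocyte markers it was between 2.57% and 7.64% and between 1.06% and 3.43%, and *Gfap* was called lower (19.6% ± 4.87 and 4.60% ± 3.36, limma adjusted p = 0.0289), while *Slc1a3* had 2.61% and 1.68%, *Gja1* 2.18% and 2.82%, and *Aqp4* and *Aldh1l1* no peak in any library. Mean coverage of 9 oligodendrocyte markers was between 5.88% and 6.84% and between 5.14% and 8.40%, with *Cspg4* at 2.96% ± 4.06 and 14.8% ± 9.91 (limma adjusted p = 0.127), and that of 6 microglia markers at most 1.49% and 0.267%. The 4 endothelial markers had 0% in every control library and at most 3.42% in *Tip60* cKO. The part of the sorted cells in the differences at the 10 genes was not tested.

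Across the 10 libraries, the coverage of the 10 genes, taken as their median less the median of each library, was followed most closely by *Spats1* (Pearson r = 0.944), *Dctn2* (0.932), *Arid5b* (0.921), *Ccdc12* (0.921) and *Riiad1* (0.916) among 9649 protein-coding genes with a peak in all 10 libraries. These values are descriptions over 10 libraries of 2 genotypes that share depth and lane, and they were picked as the highest of many. *Ccdc12*, for example, had 62.8% in the control and 38.0% in *Tip60* cKO.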

How the data were processed

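H4K12ac ChIP-Seq was measured in 5 *Tip60* cKO and 5 control libraries of sorted hippocampal neuronal nuclei. The authors aligned reads to mm10 with STAR, removed duplicates and ran MACS (version 2.1.0.20140616) on each library at q = 0.1, against input pooled by genotype. The deposited lists give each peak's pileup signal, fold enrichment (a ratio to the local background) and −log10 p and q values, without reads. The authors' own pileup, fold enrichment and q values were used as deposited.

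The genes and lists were chosen with earlier results of these data known. Peaks were placed on GENCODE M21 with pandas 2.3.3 and numpy 2.4.6 in Python 3.11.15, and sequences were read from RefSeq GRCm38.p6 with pysam 0.24.0. Features with a peak in at least 2 libraries (relative fold enrichment: all 10) were fitted with limma 3.58.1 (R 4.3.3, genotype only, robust trended eBayes with statmod 1.5.0), with Benjamini-Hochberg adjustment over all features and a threshold of 0.05, after a test on simulated data. For single values, a two-sided exact permutation test over 252 assignments was used (scipy 1.17.1, smallest p 0.00794). All 10 genes were named, together with the strongest distal region of each and the list genes that were called or did not overlap, of which 1 is not reported here. Regions and bins named beyond these were chosen after their values were seen. Alternatives were a stricter q, equal numbers of peaks, other windows and flanks, the pileup, plain eBayes, lane, a replicate block and leaving out each library. Depth was 22864189 to 37923809 tags per library.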

Additional observations from a re-analysis of the deposited data

Results flagged for a closer look

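In 7 of 94 groups of 5 libraries, 1 library lay far from the other 4, and chance gives about 1 in 20 such groups. At *Fos*, coverage within 2 kb of the start was 29.7% in cKO 3 and between 0% and 6.80% in the other cKO libraries. At *Fosl2*, it was 23.4% in cKO 5 and between 56.1% and 65.9% in the others. The rank score of *Fos* was 0 in cKO 2, which had no peak there, and between 74.1 and 81.5 in the other cKO libraries. That of *Npas4* was 0 in cKO 5 and between 72.4 and 87.9 in the others. The rank score of *Fosl2* was 93.6 in control 1 and between 98.1 and 99.4 in the other controls. The relative fold enrichment of *Egr3* was 0.515 in control 4 and between 0.746 and 0.832 in the other controls, on the log2 scale. Coverage of the *Arc* gene body was 41.5% in control 1 and between 16.9% and 22.3% in the other controls. What set these libraries apart was not tested.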

How the results depend on the processing

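Of the values of single genes under the alternatives, 740 kept their direction and their side of the threshold, 3 passed it newly, 7 no longer passed it and 42 reversed; the cause was not tested. Near the start, 0 genes were called lower by coverage, 1 (*Fosl2*, −26.3) with lane as a covariate, and 0 to 1 when single libraries were left out (*Fosl2*, −29.5, without control 4). Over all genes the lower calls by coverage went from 313 to 550 with lane as a covariate and to 984 without control 4, and ranged from 23 to 1027 when single libraries were left out. By relative fold enrichment 1 gene was called lower, 2 with a window of 1 kb, 0 with the pileup, and 0 to 1 when single libraries were left out. Over all genes 217 were called lower and 147 higher on this scale, 207 and 147 with a window of 1 kb and 2 and 5 with the pileup. When single libraries were left out, they ranged from 111 to 269 and from 94 to 136. By rank, the 26 lower and 60 higher calls over all genes went to 1 and 5 with the replicate block. They ranged from 2 to 28 and from 6 to 53 when single libraries were left out. In gene bodies, the 10 lower calls went to 0 with lane as a covariate or the replicate block. They ranged from 0 to 79 when single libraries were left out. Of the distal regions 0 were called, against 5 lower and 1 higher when called by presence in 4 or more additional libraries of a genotype.

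With equal numbers of peaks, the direction reversed for coverage of *Ier2* (5.48), relative fold enrichment of *Fosl2* (0.0239), body coverage of *Fosl2* (0.648) and flank coverage of *Arc* (0.867). With a window of 1 kb it reversed for the rank of *Arc* (−12.9) and *Egr1* (1.58) and the relative fold enrichment of *Fosl2* (0.0921) and *Egr1* (0.0413). With the pileup it reversed for the rank of *Ier2* (−1.80) and *Nr4a1* (−1.21) and the relative value of *Fosl2* (0.0619) and *Ier2* (−0.101), and with flanks of 100 kb for *Junb* (0.178).

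When single libraries were left out, coverage ranged from −6.29 to 2.92 for *Npas4* and from −9.55 to 0.79 for *Nr4a1*. The rank difference ranged from −1.47 to 3.66 for *Ier2*, −18.5 to 1.85 for *Fos*, −1.44 to 1.36 for *Nr4a1*, −1.94 to 0.502 for *Junb*, −19.3 to 2.65 for *Npas4* and −0.523 to 1.32 for *Fosl2*. Relative fold enrichment ranged from −0.0913 to 0.16 for *Ier2*, −0.107 to 0.0708 for *Fosl2* and −0.141 to 0.0225 for *Nr4a1*. Without a change of sign, it ranged from −0.19 to −0.0249 for *Junb*, −0.262 to −0.125 for *Egr1* and 0.0187 to 0.178 for *Arc*. Body coverage ranged from −0.753 to 2.91 for *Nr4a1* and −1.51 to 0.485 for *Fosl2*, and flank coverage from −1.18 to 0.453 for *Junb* and −1.41 to 0.0691 for *Egr1*.

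Libraries with the same replicate number did not deviate together (r between −0.151 and 0.135, against 0.364 for cKO 5 with control 4). The labels state no pairing of these libraries, and low correlations cannot show that they share nothing beside the lane. With the replicate block, the calls among the 10 genes were the same (coverage 0, relative fold enrichment 1, *Fosb* −0.566, limma adjusted p = 0.035), while over all genes coverage calls went from 313 lower and 11 higher to 24 and 3, and flank calls from 289 and 2 to 661 and 32. Flank calls fell to 52 lower with plain eBayes and to 0 with flanks of 25 kb or without any 1 of cKO 2 to cKO 5, and rose to 1067 with lane as a covariate, 1043 with flanks of 100 kb and 2524 without control 4.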
